A study of Homo sapiens with 3 samples.

Results

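The E2F transcription factors and their DP partners were followed in the established lung adenocarcinoma line NCI-H1650, of human origin, after exposure to colossolactone H. The members were chosen by gene symbol and were E2F1 to E2F8, TFDP1 and TFDP2, 10 of the 19775 genes with a probe set of their own on the Affymetrix HG-U133 Plus 2.0 array. They had 22 of the 41097 single-gene probe sets, and in the annotation no probe set was shared between a member and another gene. The series held 3 arrays. The control array came from control NCI-H1650 cells, for which the labels give neither a vehicle nor a time of collection. The other arrays came from cells of the same line exposed to 40 μM colossolactone H, a triterpenoid of the fungus Ganoderma colossum, for 12 h or for 24 h. Each group was 1 array, so no difference carries an error or a p-value, and the number of arrays limits the precision of every value.

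E2F proteins bind a GC-rich DNA element in the promoters of genes needed to enter and complete S phase. E2F1, E2F2 and E2F3 activate transcription and are held in check by the retinoblastoma protein until cyclin-dependent kinases phosphorylate it. E2F4 and E2F5 repress together with the related pocket proteins, E2F6 represses with polycomb proteins and without a pocket protein, and E2F7 and E2F8 are atypical repressors that bind DNA without a DP partner and damp the S-phase programme once it is running. The genes for E2F1, E2F7 and E2F8 are themselves known E2F targets, and TFDP1 and TFDP2 encode the DP subunits with which E2F1 to E2F6 dimerise.

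The promoters of members are shown because several members are themselves targets of the family. RefSeq windows (GRCh38.p14) of 300 bases, from 250 bases before to 50 bases after a gene start, were matched for 8 members. They were searched on both strands for the E2F element as TTTCGCGC, TTTGGCGC, TTTCCCGC and TTTGCCGC, motifs that can overlap one another. The matches in the members did not overlap, and positions are those of the first base of a match along the gene, counted from the gene start. Any of these 4 motifs occurred in 3.31% of 35116 windows. In 4 of the 8 members the first window listed held a match, in E2F1, E2F2, E2F3 and TFDP1. E2F1 had TTTGGCGC at base -20 from the gene start and TTTGCCGC on the opposite strand at base -33. E2F2 had TTTGGCGC at base -42. E2F3 had TTTCCCGC on the opposite strand at base -53, in the first of its listed windows. TFDP1 had TTTCGCGC on the opposite strand at base -120. The E2F7 window, shown because the gene was 2-fold lower at 24 h, held none of these letters, which says nothing about whether E2F binds there. A match is likewise a run of letters and not a binding site. Each sequence runs 5′ to 3′ along the gene, and capitals mark the motif matches.
E2F1 (chr20:33686336-33686635, minus strand): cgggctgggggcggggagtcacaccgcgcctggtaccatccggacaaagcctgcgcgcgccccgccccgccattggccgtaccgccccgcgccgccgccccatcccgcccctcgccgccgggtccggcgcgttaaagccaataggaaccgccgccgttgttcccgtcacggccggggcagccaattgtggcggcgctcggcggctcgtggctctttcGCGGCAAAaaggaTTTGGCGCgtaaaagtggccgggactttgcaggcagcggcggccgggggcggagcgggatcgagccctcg
E2F2 (chr1:23531184-23531483, minus strand): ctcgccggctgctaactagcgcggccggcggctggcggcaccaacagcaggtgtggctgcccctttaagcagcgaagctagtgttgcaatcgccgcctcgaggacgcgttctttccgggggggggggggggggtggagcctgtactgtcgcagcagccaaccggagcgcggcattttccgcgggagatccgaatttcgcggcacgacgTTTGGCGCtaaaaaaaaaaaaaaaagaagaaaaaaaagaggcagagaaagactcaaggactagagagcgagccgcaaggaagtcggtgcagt
E2F3 (chr6:20401629-20401928, plus strand): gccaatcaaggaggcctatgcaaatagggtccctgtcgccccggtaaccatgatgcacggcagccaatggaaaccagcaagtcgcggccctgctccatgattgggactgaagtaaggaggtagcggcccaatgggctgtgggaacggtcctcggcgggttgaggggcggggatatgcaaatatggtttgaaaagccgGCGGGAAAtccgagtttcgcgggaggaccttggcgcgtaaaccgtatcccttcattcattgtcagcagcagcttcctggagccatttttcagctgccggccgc
TFDP1 (chr13:113584503-113584802, plus strand): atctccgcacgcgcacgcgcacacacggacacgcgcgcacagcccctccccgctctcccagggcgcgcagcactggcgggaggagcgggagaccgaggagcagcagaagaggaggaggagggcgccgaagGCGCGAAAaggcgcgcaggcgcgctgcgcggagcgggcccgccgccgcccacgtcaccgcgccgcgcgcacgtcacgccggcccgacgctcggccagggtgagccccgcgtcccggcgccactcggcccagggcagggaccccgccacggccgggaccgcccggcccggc
E2F7 (chr12:77065520-77065819, minus strand): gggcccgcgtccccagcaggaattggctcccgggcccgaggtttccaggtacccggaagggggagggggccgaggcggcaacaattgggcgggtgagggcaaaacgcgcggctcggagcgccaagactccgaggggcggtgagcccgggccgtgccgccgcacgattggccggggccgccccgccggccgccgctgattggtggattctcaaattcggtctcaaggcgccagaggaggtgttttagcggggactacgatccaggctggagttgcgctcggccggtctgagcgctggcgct

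Values are MAS5 signal, a linear brightness per probe set. The brightest probe set stood for each gene. A floor of 61.4, the median of all signals on the 3 arrays, replaced lower signals, and genes that passed it on at least 1 array were counted as measured. All 10 members were measured, among 12341 measured genes. Of their 22 probe sets, 18 were above the floor on every array and 4 were below it on every array. Differences are log2 of the later over the earlier condition, and 2-fold was the size used for counting. Signals of different probe sets are not comparable with one another, so only arrays are compared.

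The arrays were alike in overall signal, with medians of 60.6 to 61.8 and trimmed means of 500.1. RNA integrity, read as the signal of the 3′ over that of the 5′ ACTB probe set, gave ratios of 4.95 on the control array, 5.38 at 12 h and 6.55 at 24 h. The same ratio for GAPDH was 1.21, 1.25 and 1.24. The ACTB ratio was lowest on the control and highest on the 24 h array, the reverse of the order of E2F1, E2F7, E2F8 and TFDP1 signals given below, and its part in those differences was not tested. All 7 epithelial markers were measured, with summed signals of 75427, 71726 and 72803. Of these 6 were lower at 12 h and 5 at 24 h, where 48.4% and 49.9% of all measured genes were. KRT19 was lowest at -0.54 and -0.60, while EPCAM was at 0.08 and 0.05. CDH1 was at -0.014 and 0.005, with its other probe set above the floor at 0.61 and 0.26. Of 9 markers of blood, stromal and endothelial cells on the arrays 5 were measured, with summed signals of 2008.4, 1681.2 and 1394.9. By their brightest probe sets all 5 were lower than the control at both times, beside the same shares of all measured genes. HBB counts among them from a signal of 66.2 on the control array and below the floor on the others. The other COL1A1 probe set above the floor was at 0.13 at 12 h and -0.22 at 24 h. PTPRC, CD3E, CD14 and VWF were below the floor on all arrays. The part of such cells in the E2F values was not tested.

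The members did not move together. The atypical repressors E2F8 and E2F7 were the lowest members, 3.08-fold and 2.35-fold below the control at 24 h, followed by E2F1 at 1.87-fold and TFDP1 at 1.52-fold. E2F6 was 1.35-fold higher, and the brightest probe sets of E2F2, E2F3 and E2F5 were within 1.16-fold of the control at that time. The probe sets of E2F3, E2F4 and TFDP2 went both ways, so 3 of the 10 members have no settled direction at 1 or both times. In RNA of a whole culture, fewer cells in S phase and less of a transcript per cell cannot be told apart. At 12 h 0 of the 10 members were 2-fold lower, against 0.429% of measured genes, and 0 were 2-fold different in either direction, against 0.867%. At 24 h 2 of 10 were 2-fold lower, against 0.624% of measured genes, and none was 2-fold higher, against 0.567%, where 1.19% differed either way. Lower by any amount were 7 of 10 members at 12 h, where 48.4% of measured genes were, and 6 of 10 at 24 h, where 49.9% were. The median over the 10 members was -0.33 at 12 h and -0.36 at 24 h, beside 0.00 over all measured genes at each time. The comparisons with the control share the control array, so an error of that array would enter both.

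**Figure D1:**
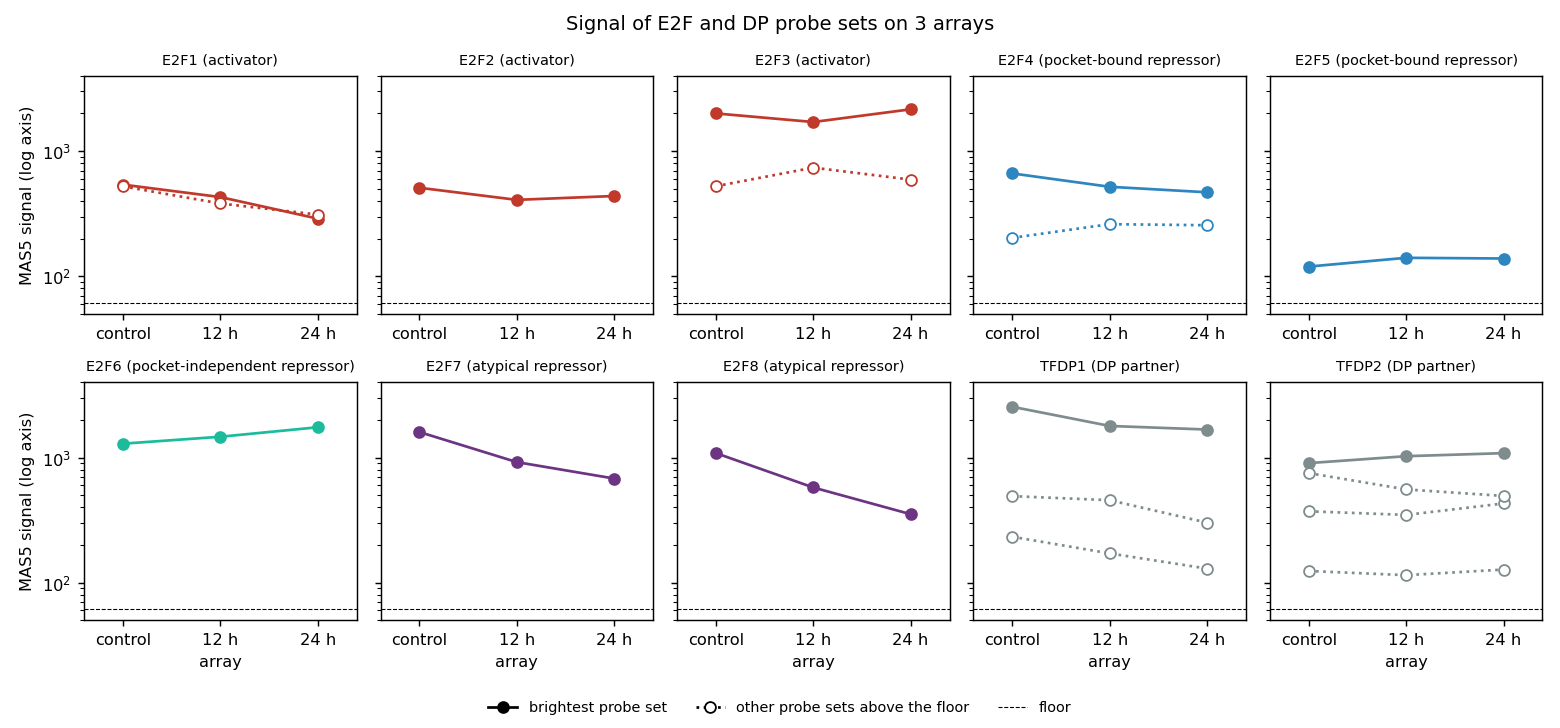
MAS5 signal (log axis) of each E2F and DP probe set above the floor on the control, 12 h and 24 h arrays, 1 point per array. Filled points are the brightest probe set of the gene, open points its other probe sets, and the dashed line is the floor of 61.4. E2F7 and E2F8 step down at each time, while the probe sets of E2F3, E2F4 and TFDP2 go different ways.

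E2F1, an activator, had a signal of 540.1 on the control array, 429.5 at 12 h and 289 at 24 h. These are values of probe set 204947_at. The control was highest and the 24 h array lowest. Its difference was -0.33 at 12 h and -0.90 at 24 h, so that 36.6% of the log2 difference seen at 24 h was present at 12 h. A second probe set, 2028_s_at, gave 523.3, 381.7 and 311.3, in the same order, with differences of -0.46 and -0.75. At 24 h E2F1 was the 132nd lowest of 12341 measured genes, and at 12 h the 1448th.

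E2F2, an activator with overlapping targets, had a signal of 509.8 on the control array, 408.2 at 12 h and 438.1 at 24 h on probe set 228361_at. Its differences were -0.32 and -0.22, with both treated arrays under the control and the 24 h array slightly above the 12 h array. The other 2 probe sets of E2F2 were below the floor on every array, at signals of 4.1 to 29.6.

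E2F3, the third activator, had a signal of 2002.9 on the control array, 1709.7 at 12 h and 2160.1 at 24 h on probe set 203693_s_at. That is a difference of -0.23 at 12 h and 0.11 at 24 h. Its other probe set, 203692_s_at, gave 524.7, 738.4 and 592.2, with differences of 0.49 and 0.17. The probe sets thus went opposite ways at 12 h, and both were above the control at 24 h. No direction can be given for E2F3 at 12 h.

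E2F4, the abundant repressor of resting cells, also had probe sets that disagreed. On 38707_r_at the signal was 663.8 on the control array, 519.1 at 12 h and 469.2 at 24 h, differences of -0.35 and -0.50. On 202248_at it was 203, 260.9 and 255.9, differences of 0.36 and 0.33. The r in the first identifier marks a probe set for which some design rules were relaxed. No direction is given for E2F4.

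E2F5, which binds pocket proteins as E2F4 does, had a signal of 119.6 on the control array, 140.5 at 12 h and 138.7 at 24 h on 221586_s_at, close to the floor. Its differences were 0.23 and 0.21, and the treated arrays lay close together. The second E2F5 probe set was below the floor throughout.

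E2F6, the repressor that works through polycomb proteins, had a signal of 1292.2 on the control array, 1467.9 at 12 h and 1747.4 at 24 h on its 1 probe set, 203957_at. The control was lowest and the 24 h array highest, the reverse of the order of E2F1. The differences were 0.18 and 0.44, and at 24 h E2F6 was the 1008th highest of the measured genes.

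E2F7, an atypical repressor, had a signal of 1600.1 on the control array, 920.3 at 12 h and 680.3 at 24 h on 228033_at. Each treated array was below the control and the 24 h array was the lowest. The differences were -0.80 and -1.23, and 64.7% of the 24 h value was present at 12 h. E2F7 was the 150th lowest measured gene at 12 h and the 25th lowest at 24 h. Its other probe set, 241725_at, was below the floor on all arrays and bears on neither value.

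E2F8, the other atypical repressor, had a signal of 1086 on the control array, 576.9 at 12 h and 353 at 24 h on 219990_at, its 1 probe set. The order of the arrays was that of E2F7. The differences were -0.91 and -1.62, with 56.3% of the 24 h value present at 12 h. E2F8 was the 86th lowest measured gene at 12 h and the 6th lowest at 24 h. Neither E2F7 nor E2F8 has a second probe set above the floor, so no other measurement of either gene stands beside these.

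TFDP1, the DP1 subunit, had 3 probe sets, and each was lower at both times. On 212330_at the signal was 2547.4 on the control array, 1790.3 at 12 h and 1676.2 at 24 h, differences of -0.51 and -0.60. Most of that difference, 84.3%, was present at 12 h. On 204147_s_at the differences were -0.44 and -0.85, and on 242939_at they were -0.11 and -0.70, so the probe sets differ in how much of the decline lay before 12 h.

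TFDP2, the DP2 subunit, had 4 probe sets above the floor, and they went both ways. On 203588_s_at the signal was 903.5 on the control array, 1026.2 at 12 h and 1085.3 at 24 h, differences of 0.18 and 0.26. On 226157_at it was 751.7, 556.7 and 494, differences of -0.43 and -0.61. The remaining probe sets lay between -0.11 and 0.21 at the 2 times. No direction is given for TFDP2.

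**Figure D2:**
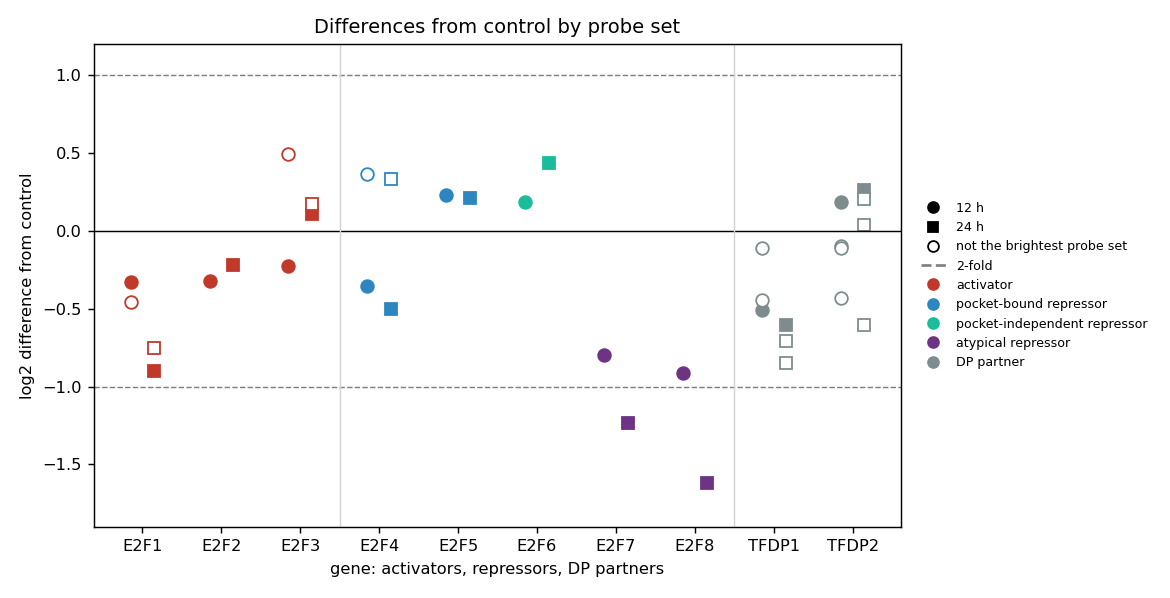
Log2 difference from the control (y axis) of every E2F and DP probe set above the floor, at 12 h (circles) and 24 h (squares), with the brightest probe set of each gene filled. Dashed lines mark 2-fold. At 24 h E2F7 and E2F8 lie past the lower line at -1.23 and -1.62, while E2F6 lies at 0.44.

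Set against each other by role, activators and repressors were not 2 separate groups. The activators E2F1 to E2F3 had a median of -0.32 at 12 h, between -0.33 and -0.23, and of -0.22 at 24 h, between -0.90 and 0.11. The repressors E2F4 to E2F8 had a median of -0.35 at 12 h, between -0.91 and 0.23, and of -0.50 at 24 h, between -1.62 and 0.44. The repressor median minus the activator median was thus -0.03 at 12 h and -0.28 at 24 h. At both times the repressor median was the value of E2F4 on 38707_r_at, a gene for which no direction is given. Its other probe set, 202248_at, was at 0.36 and 0.33, so the contrast rests on the choice of that probe set. With the median over a gene's probe sets the sign turned, to 0.32 and 0.14. The ranges of the classes overlap at both times, and each class holds members on both sides of the control at 24 h.

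The split ran within the repressors instead. The atypical repressors had a median of -0.86 at 12 h and -1.43 at 24 h, whereas E2F4, E2F5 and E2F6 had medians of 0.18 and 0.21. The lowest of those 3, E2F4 on its brightest probe set, was at -0.50 at 24 h, above both E2F7 and E2F8. Among the activators E2F1 stood apart from E2F2 and E2F3 at 24 h but not at 12 h. This division by values was made after they were seen.

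Between 12 h and 24 h, a comparison that leaves out the control array, E2F8 was at -0.71, E2F1 at -0.57 and E2F7 at -0.44. E2F3 was at 0.34 on its brightest probe set and -0.32 on the other, and E2F6 was at 0.25. No member was 2-fold lower between the treated arrays, where 0.178% of measured genes were, and 6 of 10 were lower by any amount, where 51.7% of measured genes were. E2F8 was the 117th lowest in this comparison.

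**Figure D3:**
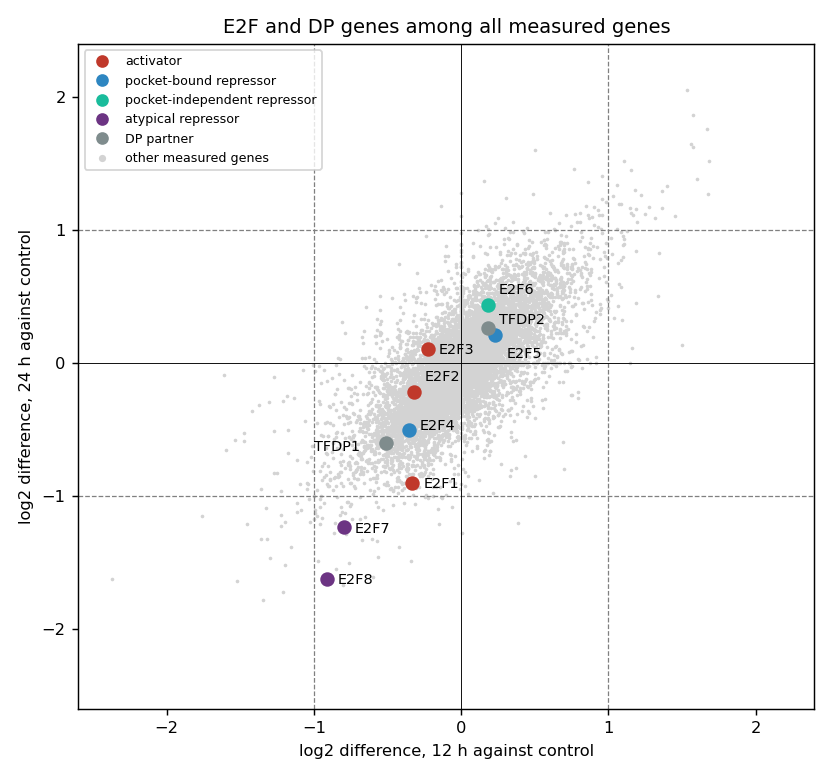
Log2 difference at 12 h (x axis) and at 24 h (y axis) against the shared control for all 12341 measured genes (grey) and the 10 E2F and DP genes (coloured by role). Dashed lines mark 2-fold. E2F8, E2F7 and E2F1 are the lowest members on the y axis, at -1.62, -1.23 and -0.90. E2F5, E2F6 and the brightest probe set of TFDP2 lie above 0 at both times.

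The genes nearest to E2F8 in the plane of the 12 h and 24 h differences were sought among 1889 genes above the floor on all 3 arrays with at least 2 probe sets of the same sign. The nearest 5 of these were FRMD5, PRR5L, HELLS, TGFB2 and SLFN13, at distances of 0.34 to 0.50 on the log2 scale. The search covered 1889 of the 12341 measured genes. E2F7, at -0.80 and -1.23 beside -0.91 and -1.62 for E2F8, was left out because it had 1 probe set above the floor. E2F8 itself would not have passed that rule. HELLS, a chromatin remodelling helicase of dividing cells, had a signal of 4191.2 on the control array, 2091.8 at 12 h and 1863.8 at 24 h. Likeness over 3 arrays that share a control is a description only.

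The gene lists that follow were counted by brightest probe sets. Each count stands beside 48.4% of all measured genes lower at 12 h and 49.9% at 24 h. Of the 3 pocket proteins, which hold E2Fs in repressed complexes, 2 were lower at 12 h and 3 at 24 h. Their medians were -0.23 and -0.37, and none was 2-fold different. RB1 had a signal of 2332 on the control array, 1983.4 at 12 h and 1754.4 at 24 h, a difference of -0.41 at 24 h. RBL1, the pocket protein p107 and itself an E2F target, was at -0.33 and -0.37, though its probe sets went both ways at 12 h. RBL2, p130, was at 0.08 and -0.06 on its brightest probe set and at 0.54 and 0.93 on its other.

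The MuvB complex joins E2F4 and p130 in repression and then MYBL2 and FOXM1 in activating mitotic genes. Of its 7 listed genes 4 were lower at 12 h and 6 at 24 h, none by 2-fold, with medians of -0.03 and -0.25. LIN54, the DNA-binding subunit, was at -0.34 and -0.55, LIN9 at -0.03 and -0.45, and FOXM1 at -0.12 and -0.44. LIN37 was the exception at 24 h, at 0.33 and 0.41. Of 8 measured polycomb partners of E2F6, 5 were lower at each time, beside 48.4% and 49.9% of all measured genes. None was 2-fold lower, and the medians were -0.07 and -0.11. RING1, a ubiquitin ligase, was at 0.30 and 0.35, and MAX, a DNA-binding partner, at 0.21 and 0.26, though its 4 probe sets above the floor lay between -0.11 and 0.26 at 12 h and between -0.34 and 0.34 at 24 h. YAF2, a RING1-binding adaptor, was at -0.13 and -0.32, with its other probe set at 0.13 at 24 h. MGA, the DNA-binding partner of MAX, was at -0.09 and -0.28, with probe sets up to 0.49 and 1.16.

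Upstream of the pocket proteins, 8 of 9 G1 cyclins and kinases were lower at 12 h and 7 at 24 h by their brightest probe sets. The median was -0.27 at each time. CCND2 counts among the lower ones from a signal of 74.1 on the control array and below the floor on the others. Probe sets of CCND1 above the floor lay between -0.23 and -0.02 at 12 h and between -0.21 and 1.03 at 24 h. Those of CDK6 lay between -0.51 and 0.28 at 12 h and between -0.36 and 0.75 at 24 h. CCNE2, cyclin E2 and an E2F target, was 2-fold lower at 24 h, at -0.99 and -1.10. CDK2, the kinase that cyclin E activates, was at -0.50 and -0.74 on its brightest probe set. Its other probe set above the floor was at -0.23 and -1.18, past 2-fold at 24 h. CDC25A, the phosphatase that releases CDK2, was at -0.54 and -0.37. CCNE1, cyclin E1, was at -0.34 and 0.02, the same order of arrays as the brightest probe set of E2F3. Of the 4 measured kinase inhibitors none was 2-fold different, and they went both ways at each time, with medians of 0.15 and -0.05. CDKN1C was at -0.48 and -0.20, CDKN2D at 0.44 and 0.06, CDKN1A at 0.19 and 0.06, and CDKN1B at 0.10 and -0.16.

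S-phase target genes of E2F, a list that overlaps replication genes already known to be lower in these data, were lower in 28 of 29 measured cases at 12 h and 29 of 29 at 24 h. Of all measured genes 48.4% and 49.9% were lower at these times. The medians of the targets were -0.31 and -0.51. UHRF1, which maintains DNA methylation, was at -1.04 and -0.91 and was the 1 target 2-fold lower at either time by its brightest probe set. MCM2 and MCM3, subunits of the replicative helicase, were at -0.75 and -0.90 and at -0.80 and -0.65, and RRM2, a ribonucleotide reductase subunit, at -0.58 and -0.78. By brightest probe sets the largest target difference at 24 h was -0.91, and a dimmer probe set of MCM6, another helicase subunit, was at -1.19. At 12 h dimmer probe sets of CHAF1A, MCM6 and MCM4 were also past 2-fold, at -1.28, -1.10 and -1.08. A dimmer probe set of RRM1 went the other way, at 0.05 at 12 h. Promoter windows were listed for 27 of the 30 genes on this list. For 16 of them the window held at least 1 of the 4 E2F motifs, beside 3.31% of all windows. The list was chosen as E2F targets and used 1 window per gene, whereas all windows can include several per gene. The 2 shares are therefore unlike, and no conclusion is drawn from them.

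Apoptosis genes that E2F1 can activate went both ways. APAF1, the apoptosome scaffold, was at -0.41 and -0.43, BCL2L11, the BH3 protein BIM, at 0.19 and -0.06 with probe sets going both ways, and PMAIP1, a second BH3 protein, at 0.39 and 0.64. TP73 reached 98.6 in the control and was below the floor on the treated arrays, at least 1.61-fold lower. Of 4 factors that control E2F protein turnover, 3 were lower at each time and none by 2-fold, with medians of -0.06 and -0.32. SKP2, a ubiquitin ligase subunit and E2F target, was at -0.72 and -0.63, and its 3 probe sets lay between -0.72 and -0.05 at 12 h and between -0.63 and -0.27 at 24 h. FZR1 and CDC20, activators of the anaphase-promoting complex, were at -0.09 and 0.08 and at 0.08 and -0.01. CCNF, cyclin F, was at -0.02 and -0.83 on its brightest probe set and at -0.85 and -0.94 on its other.

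**Figure D4:**
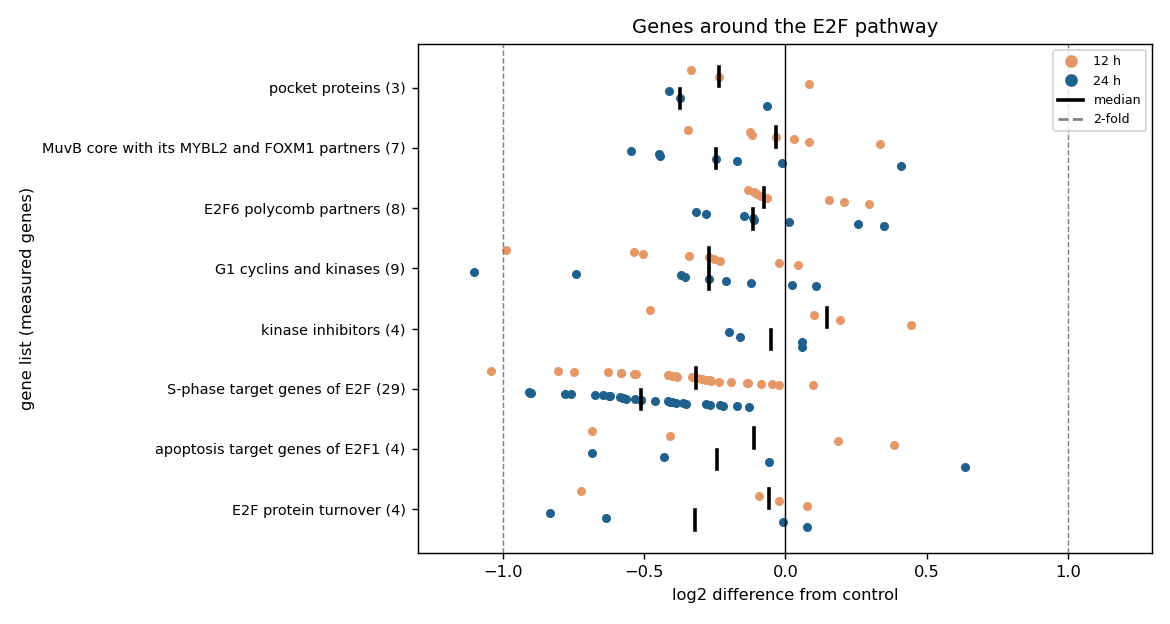
Log2 difference from the control (x axis) of the measured genes of 8 lists around the E2F pathway (y axis, with the number of measured genes) at 12 h and 24 h. Each point is a gene, black bars are medians and dashed lines mark 2-fold. S-phase targets lie below 0 at 24 h with a median of -0.51, while the medians of kinase inhibitors and polycomb partners lie between -0.11 and 0.15.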

How the data were processed

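Total RNA of 1 control, 1 12 h and 1 24 h culture was measured on 3 arrays. The authors deposited linear signal intensity, for which the submitters' processing notes name MAS5. Version and settings are not given in the sources used here. Trimming 2% at each end gave a mean signal of 500.1 on every array. Arrays were not scaled again.

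The platform annotation gave 1 gene for 41097 of 54675 probe sets. The brightest probe set, by mean log2 signal, stood for a gene. Signals were floored at the 50th percentile, 61.4. Comparisons were log2 differences of array pairs, counted at 2-fold, with no test. The counting procedure was tested on simulated data. Noise in it came from the 24 h against 12 h differences, and changes were planted only in genes well above the floor. It therefore does not bear on dim genes or on an error of the control array. Python 3.11.15, pandas 2.3.3 and, for cyclic loess, limma 3.58.1 were used.

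The members and gene lists were chosen with earlier results of these data known. All members are named, with list genes 2-fold different or up to 4 with the largest mean difference. Some further list genes are named for probe sets that differ or lie near the floor. Lists of 7 or fewer genes may be named whole. The nearest genes to E2F8 are the 5 at the smallest distance among genes with at least 2 probe sets, a rule that leaves out E2F7. Some genes of the lists are not reported here. Alternatives changed the scaling, the floor or the probe set of a gene.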

Additional observations from a re-analysis of the deposited data

Results flagged for a closer look

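E2F3 was the 1 member whose brightest probe set lay on opposite sides of the control at the 2 times, at -0.23 at 12 h and 0.11 at 24 h. The difference between the times was not tested, since each was 1 array.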

How the results depend on the processing

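E2F7 and E2F8 were 2-fold lower at 24 h under all 8 alternatives chosen at the outset and 1 added after seeing the data, E2F7 between -1.24 and -1.22 and E2F8 at -1.62 in each. No member was 2-fold different at 12 h under any of these 9. E2F7 and E2F8 each had only 1 probe set above the floor, untagged and above 192.4 on every array. The changed floors and probe set choices therefore could not alter their values, and only the rescalings and the pseudocount could. E2F5 could not be measured with the floor at the 65th percentile, and E2F3 and E2F5 had no probe set without an s, x or a tag. A value was counted as moved when it shifted by more than 0.183, the robust SD of 24 h against 12 h differences. Of 255 member values under alternatives 242 stayed within that and 13 moved, all of E2F3, E2F4 or TFDP2. Each of the 13 moved under an alternative that changed which probe sets stood for a gene. None moved under a rescaling, a changed floor or the pseudocount. Why the probe sets of these genes differ was not tested. With s, x, a and r tagged probe sets left out, E2F4 was at 0.36 and 0.33 and TFDP2 at -0.43 and -0.61. The repressor median minus the activator median was -0.26 at 12 h and -0.65 at 24 h with the floor at the 65th percentile, which drops E2F5. It was 0.32 and 0.14 as medians over probe sets. At 12 h it was -0.25 without s, x or a tagged probe sets, and at 24 h it was 0.11 when r tagged ones were left out too. Over all genes, 107 were 2-fold different at 12 h and 147 at 24 h. These counts became 1483 and 1604 with the floor at the 25th percentile, 44 and 61 at the 65th, and 3349 and 3461 with no floor and a pseudocount of 1, where dim probe sets enter. No paired analysis was possible because each group was 1 array.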
